A study of Drosophila melanogaster with 4 samples.

Results

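Genes for the proteins of the mitochondrial ribosome were examined in 4 whole-animal RNA samples of yeast-deprived adult Drosophila melanogaster. The members are the genes whose symbol begins with mRpL or mRpS followed by a number, for large and small subunit proteins. Each also had an array probe set annotated to no other gene. By this rule 64 genes, read by 66 probe sets, were found among the 10844 genes with a probe set of their own.

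The samples form 1 group, baseline, with n = 4 and no contrast group. All the larvae ate standard food up to the beginning of the third instar, were then washed, and were kept on food without yeast until 4 days after adult emergence. These flies were killed right before other flies of the study were returned to yeast, so they carry the state in which refeeding began. The refed flies and the later hours are not analysed here. The labels order the samples as hours -4, -3, -2 and -1 for a change-point analysis, and they are called libraries 1, 2, 3 and 4 below. The sources used here give no strain, sex, number of flies per sample or number of cultures. The p-values therefore measure only the spread between these samples, which may be technical.

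The mitochondrial ribosome translates the few mRNAs encoded by mitochondrial DNA, which in animals specify core subunits of the respiratory chain and of ATP synthase. Its ribosomal RNAs come from mitochondrial DNA, but its proteins are encoded in the nucleus, made in the cytosol and imported. Some of these proteins descend from those of bacterial ribosomes, and others are found only in mitochondria. In Drosophila the small subunit protein S12, encoded by tko, is known for mutants with bang sensitivity and slow development.

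Values are normalized array intensities on a linear scale. Probes differ in how brightly they report, so a level is compared between libraries for the same probe set, never between probe sets. Array medians were 112 to 113. Control RNAs added at hybridisation read 1.59 times as bright in library 3 as in library 1, 1.29 times in library 4 and 0.927 times in library 2. For 3 fly transcripts probed at both ends, libraries 3 and 4 had mean log2 ratios of 3' to 5' signal of 1.44 and 1.40, against 1.14 and 1.05 for libraries 1 and 2. Library 3 also stood apart in genes of the male reproductive tract. Their 8 markers summed to 3044 there, against 703 to 736 in the other 3 libraries. Several were dim elsewhere. Acp95EF had 416 in library 3, against 41.5, 42.9 and 45.8 in libraries 1, 2 and 4. Mst57Da had 662 in library 3, against 69.0, 74.5 and 73.6. Such markers reach the mean intensity needed for testing only through library 3, so a test of them adds nothing to these values. The 7 ovary markers summed to 1520 in library 3 and 1526 in library 4, against 1760 and 1918 in libraries 1 and 2, and each was lower in both 3 and 4 than in either of the others. The 3 flight muscle markers summed to 850 in library 3 and 1013 in library 4, against 952 and 878 in libraries 1 and 2. Most of that sum is Act88F, highest in library 4 at 791. The list did not move together, as fln was highest in library 2, at 167, and TpnC4 stayed between 77.2 and 79.0. No marker on the 3 lists was at 0, but not all were above background in every library. The lowest single value, 22.8 for EbpII in library 1, lay under the negative control medians of 46.1 to 48.7 described in the next paragraph. The part of these differences in any result below was not tested.

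Most members were measured above background. The 23 negative control probe sets, which match no fly transcript, had medians of 46.1 to 48.7 in the libraries, and the brightest of them reached 119 to 133. By that measure 43 members exceeded every negative control in all 4 libraries, 9 in 1 to 3 libraries and 12 in none. Mean intensities of the members ran from 53.2 to 644, with a median of 192.5. For testing, intensities below 57.1 were raised to that floor and probe sets in the lower 40% of mean log2 intensity were left out. This left 8379 probe sets of the whole array and 57 members.

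The 7 members left untested are dim and fall in both subunits. mRpL1, whose bacterial relative forms the mobile stalk by the tRNA exit, had 81.8, 79.6, 77.1 and 84.6 in libraries 1 to 4. mRpL21 had 96.4, 88.3, 82.9 and 74.7. mRpL18, mRpL19 and mRpL32 had means of 65.9 ± 1.32, 67.0 ± 1.70 and 68.0 ± 3.13 (SD, n = 4). All 3 are relatives of bacterial large subunit proteins and lie below the brightest negative control. mRpL52 and mRpS25, both particular to mitochondria, lie at the floor, with means of 53.2 ± 4.05 and 54.99 ± 5.07 (SD, n = 4).

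Across the tested members the baseline samples differed little. The coefficient of variation over the 4 libraries had a median of 4.82%, with a range of 0.551% to 32.3%, against a median of 5.24% over all tested probe sets. The highest library was under 1.2 times the lowest for 50 of the 57 tested members (87.7%, against 80.9% of all tested probe sets). It was under 1.5 times the lowest for 56 (98.2%, against 98.6%). A ratio of the SD on the log2 scale to the SD expected at that intensity expresses variability free of brightness. Its median was 0.86 for the tested members, 0.93 over all tested probe sets, 0.75 for 33 cytosolic ribosomal protein genes and 1.03 for 61 oxidative phosphorylation genes. The ratio exceeded 1 for 18 tested members (31.6%, against 43.9% of all tested probe sets).

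**Figure D1:**
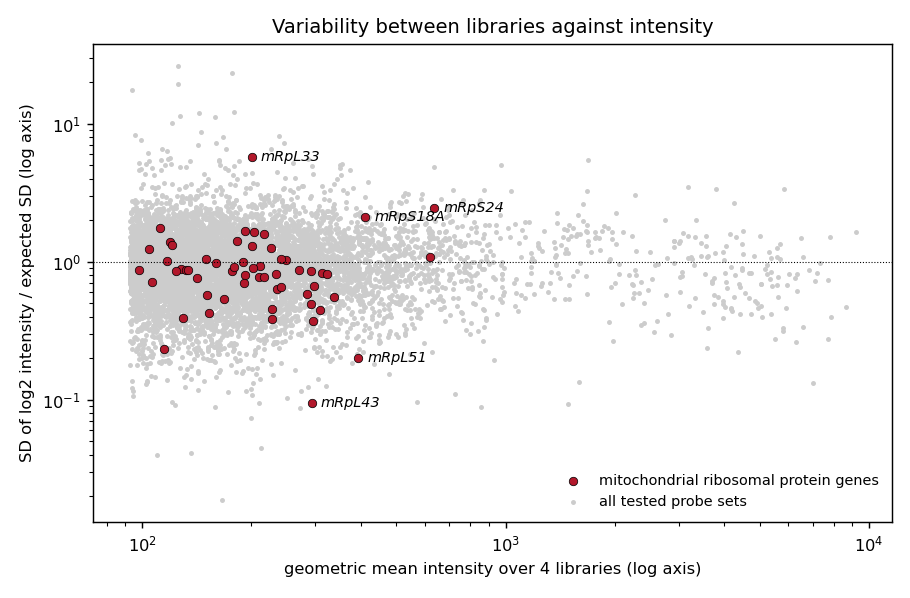
Each point is a probe set, with its geometric mean intensity over the 4 libraries on the x axis (log scale) and the SD of its log2 intensity over the SD expected at that intensity on the y axis (log scale). Red points are the 57 tested mitochondrial ribosomal protein genes and grey points all 8379 tested probe sets. Most red points lie at or below the dotted line at 1, while mRpL33 lies at 5.75, mRpS24 at 2.46 and mRpL43 at 0.0943.

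mRpL33 was the single member whose variance between the libraries passed the test. It encodes a small protein of the large subunit whose bacterial relative sits by the exit site for tRNA. Its probe set, 151378_at, had 215, 299, 173 and 145 in libraries 1 to 4. Library 2 was highest and library 4 lowest, a span of 2.07 times. The SD was 5.75 times that expected, with an adjusted p of 0.0489 in the limma-based variance test. That put 1 of 57 tested members past the threshold of 0.05 (1.75%), against 0.274% of all tested probe sets, or 23, among which mRpL33 had the largest p. At an unadjusted p under 0.05 the test found 3 members (5.26%, against 5.53% of all), the others being mRpS24 and mRpS18A. The call did not hold under 10 of 12 other settings, among them a floor at the 5th percentile, with an adjusted p of 0.0510, and quantile normalization, with 0.0502. It was lost without library 2, 3 or 4, with adjusted p of 0.282, 0.107 and 0.0795 in the limma-based test. The SD ratio of mRpL33 itself was 3.52 without library 2 and lay between 5.39 and 6.81 under every other setting run.

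The gene next to mRpL33 in the RefSeq gene order, NO66, was almost level. NO66 had 140, 149, 140 and 140 in libraries 1 to 4, so the high value of mRpL33 in library 2 was not matched there in size.

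mRpS24 and mRpS18A, both of small subunit families with bacterial relatives, came next in variability. mRpS24, a relative of bacterial S3 at the mRNA entry, had 815 in library 4 (probe set 150487_at), against 564, 623 and 574 in libraries 1, 2 and 3. Library 4 alone was high. The difference was 0.48 ± 0.10 on the log2 scale (SE, as for every log2 difference below) and did not pass, with an adjusted p of 0.554 in limma. mRpS18A, 1 of 3 relatives of bacterial S18, had 482 in library 3 (149507_at), against 406, 348 and 417 in libraries 1, 2 and 4. Its log2 difference was 0.31 ± 0.12, with an adjusted p of 0.670 in limma. Library 3 was the high one for mRpS18A and library 2 the low one. The human protein of the same name is found in the large subunit.

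The other S18 relatives did not share the profile of mRpS18A. mRpS18B had 175, 166, 168 and 164 in libraries 1 to 4, all within 1.07 times. mRpS18C had 244 in library 1, against 214, 209 and 199 in libraries 2, 3 and 4. Library 1 was high for mRpS18C, by 0.24 ± 0.10 on the log2 scale, and the adjusted p was 0.9998 in limma. The 3 relatives thus had their highest value in library 3, library 1 and library 1.

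mRpS33 and mRpL20 completed the 5 members with the smallest p for variance. mRpS33, a small subunit protein particular to mitochondria, had 115, 109, 126 and 98.8 in libraries 1 to 4, below the brightest negative control of each library. mRpL20, whose bacterial relative binds ribosomal RNA early in assembly, had 169 in library 4, against 195, 209 and 196 in libraries 1, 2 and 3. Library 4 was low for both genes. The log2 difference of mRpL20 was -0.24 ± 0.08 with an adjusted p of 0.554 in limma. CG11267, next to mRpL20 in the gene order and looked up after the values were seen, had 294 in library 4, against 338, 360 and 344 in libraries 1, 2 and 3. Library 4 was thus low for this neighbour as well, with a log2 difference of -0.24, like that of mRpL20. Library 4 was the lowest library for 32.8% of all tested probe sets, a share that takes no account of size. Whether the 2 genes share a cause was not tested. TBC1d7 and pch2, also looked up as neighbours of members, were lowest in library 1 and too dim to test. They are not set against mRpL20.

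**Figure D2:**
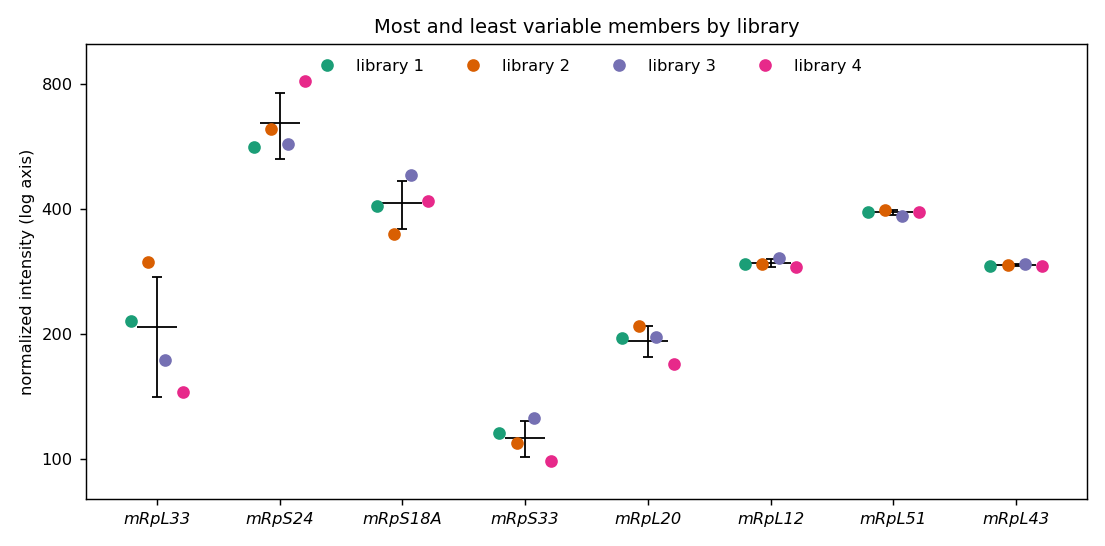
Normalized intensity (log axis) of 8 members in libraries 1 to 4, as coloured points, with the mean as a horizontal line and the SD over the 4 libraries as error bars. The points of mRpL33 spread between 145 and 299 and mRpS24 has 1 high library, number 4 at 815, while the points of mRpL43 lie between 291 and 294.

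At the other end, several members hardly differed between the samples. mRpL43, a large subunit protein particular to mitochondria, had 292, 294, 294 and 291 in libraries 1 to 4, and its SD was 0.0943 of that expected. mRpL51 had 394, 398, 386 and 392, with an SD of 0.20 of that expected. Both are bright enough to exceed every negative control in all 4 libraries. mRpL44, an RNase III-like protein, had 116, 115, 116 and 113, which did not exceed the brightest negative control in any library. mRpL12, the stalk protein that recruits translation factors, had 295, 295, 305 and 289, and mRpS11, on the platform of the small subunit, had 235, 227, 226 and 223. No library stood out for these members.

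The members with bacterial relatives in the large subunit numbered 28, of which 23 were tested. Proteins at and around the peptidyl transferase centre include mRpL2, mRpL3 and mRpL16. mRpL2 had 661 in library 3 and 658 in library 4, against 608 and 564 in libraries 1 and 2. Its 2 pairs did not overlap, and the log2 difference of 0.17 ± 0.08 had an adjusted p of 0.402 in limma. mRpL3 had 150, 158, 150 and 147 and mRpL16 had 294, 297, 295 and 279 in libraries 1 to 4, so mRpL2 differed from both in which libraries were high.

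Around the tunnel through which the new chain leaves, mRpL4, mRpL22, mRpL23, mRpL24 and mRpL47 have bacterial relatives. mRpL4 had 134, 137, 140 and 125, and mRpL23 had 199, 200, 188 and 183 in libraries 1 to 4. mRpL22 had 143, 163, 147 and 146, and mRpL24 had 118, 128, 131 and 121. Library 4 was lowest for mRpL4 and mRpL23, and library 1 for mRpL22 and mRpL24. mRpL47, the relative of bacterial L29, had 307 in library 4, against 292, 296 and 272 in libraries 1, 2 and 3. It is 1 of 2 tested members that were highest in library 4, mRpS24 being the other.

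The stalk and its base, where translation factors dock, are formed by mRpL10, mRpL11 and mRpL12. mRpL10 had 146, 142, 145 and 133 in libraries 1 to 4, lowest in library 4. mRpL11 had 178 in library 1, against 212, 218 and 206 in libraries 2, 3 and 4, a log2 difference of -0.25 ± 0.09 with an adjusted p of 0.9998 in limma. Library 1 was low for mRpL11, while mRpL10 was highest in it and mRpL12 was highest in library 3. Both genes with 2 probe sets belong to the stalk or its base. The second probe set of mRpL12 had 159, 149, 158 and 161, a span of 1.08 times, against 1.05 times for the first. The second of mRpL11 had 53.3, 48.4, 52.7 and 60.5, around the floor, and does not show the low value in library 1.

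Of the other tested large subunit members of this class, mRpL9, mRpL13, mRpL15, mRpL17, mRpL28, mRpL30, mRpL35 and mRpL55 were lowest in library 4, and mRpL14 in library 2. mRpL28 had 255, 263, 252 and 230, mRpL35 had 197, 198, 185 and 185, and mRpL14 had 188, 181, 205 and 186 in libraries 1 to 4. mRpL36, the relative of the smallest bacterial large subunit protein, had 291 in library 3, against 316, 326 and 317 in libraries 1, 2 and 4. The log2 difference of -0.13 ± 0.09 had an adjusted p of 0.894 in limma. The class had a median ratio of SD to expected SD of 0.86, and 13 of its 23 tested members were highest in library 2.

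The large subunit members particular to mitochondria numbered 15, with 14 tested, and had a median ratio of SD to expected SD of 0.74. mRpL45, which in mammals lies at the tunnel exit facing the inner membrane, had 286, 297, 280 and 274 in libraries 1 to 4. mRpL49 had 195, 182, 190 and 164, with the largest ratio of this class, 1.41. mRpL50 had 109, 112, 102 and 105, below the brightest negative control of each library. The lowest library was 4 for mRpL45 and mRpL49 and 3 for mRpL50. mRpL39 had 132 in library 2, against 123, 111 and 114 in libraries 1, 3 and 4, a log2 difference of 0.19 ± 0.10 with an adjusted p of 0.999 in limma. mRpL54 had 221 in library 3, against 199, 188 and 194 in libraries 1, 2 and 4, and its log2 difference of 0.19 ± 0.08 had an adjusted p of 0.729 in limma. mRpL38, mRpL40, mRpL41 and mRpL48 were lowest in library 4, and mRpL42 and mRpL46 in library 3.

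The small subunit members with bacterial relatives numbered 12, all tested, with a median ratio of SD to expected SD of 0.82. mRpS7, which nucleates the head of the small subunit in bacteria, had 255, 242, 245 and 222 in libraries 1 to 4. mRpS9, whose bacterial relative reaches the peptidyl-tRNA site, had 218, 213, 210 and 198. Library 1 was highest and library 4 lowest for both. The same order of extremes held for mRpS11, mRpS17, mRpS18B and mRpS18C. mRpS2 and mRpS6 were lowest in library 3, with means of 235.9 ± 8.42 and 308.8 ± 8.24 (SD, n = 4). mRpS16 had 229, 236, 225 and 223, highest in library 2. mRpS28, a relative of bacterial S1, had 278, 276, 280 and 251, with library 4 low.

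The small subunit members particular to mitochondria numbered 9, with 8 tested, and their median ratio of SD to expected SD was 1.10. mRpS29, the GTP-binding protein whose human relative is also known as death-associated protein 3, had 247 in library 1, against 233, 214 and 214 in libraries 2, 3 and 4. Its log2 difference of 0.17 ± 0.10 had an adjusted p of 0.9998 in limma. mRpS26 had 108 in library 4, against 129, 124 and 124 in libraries 1, 2 and 3, a log2 difference of -0.21 ± 0.08 with an adjusted p of 0.554 in limma. mRpS22 and mRpS34 are genes whose human relatives are mutated in mitochondrial disease. mRpS22 had 106, 105, 113 and 95.4, and mRpS34 had 130, 133, 128 and 126 in libraries 1 to 4. mRpS31 had 231 in library 4, against 236, 249 and 248 in libraries 1, 2 and 3, and mRpS35 had 220, against 239, 244 and 235. Library 4 was the low one for both. mRpS30, whose human relative is also found in the large subunit, had 157, 173, 154 and 156, with library 2 high. All 8 tested members of this class were lower in library 4 than the mean of the other 3 libraries, and 7 had their lowest value there.

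**Figure D3:**
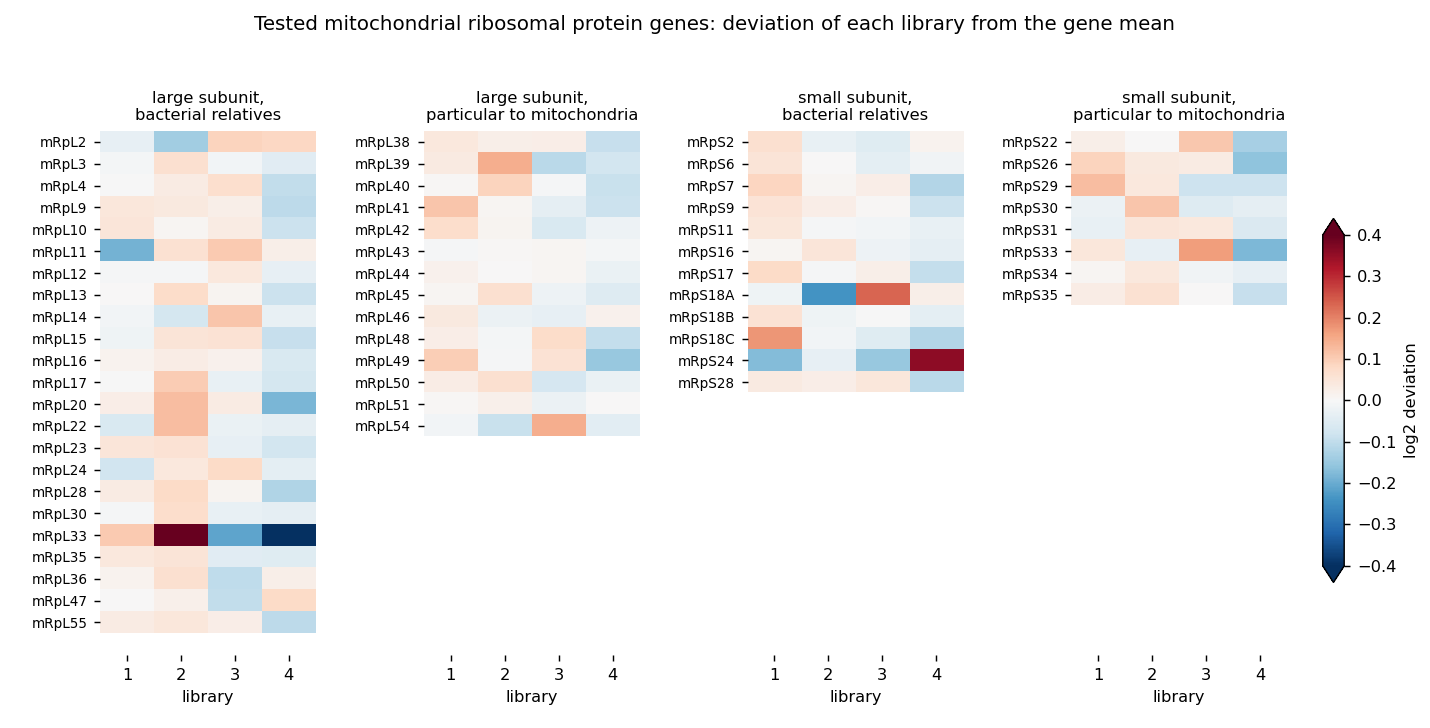
Deviation of each library from the gene's mean log2 intensity, in log2 units, for the 57 tested members, 1 gene per line, grouped by subunit and by whether the protein has bacterial relatives. Red is above the mean and blue below, and colours stop at 0.4 in either direction. The column of library 4 is mostly blue, with mRpS24 as the darkest red exception.

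Library 4 had the most low values. Of the 57 tested members, 48 were lower in library 4 than the mean of the other 3 (84.2%, against 56.2% of all tested probe sets). The median log2 difference was -0.08, against -0.02 over all tested probe sets and -0.02 over 3071 tested probe sets of like intensity. Library 4 was the lowest library for 39 tested members (68.4%, against 32.8% of all tested probe sets and 33.3% at like intensity). It was the highest for 2. The 4 classes had medians of -0.08 and -0.06 in the large subunit, with and without bacterial relatives, and -0.05 and -0.12 in the small subunit in the same order. These samples are whole animals, so fewer cells of a type and less RNA per cell cannot be told apart in these values.

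The shift was small for each gene, and no member passed the test of library 4 against the other 3. The count was 0 of 57, against 0.0119% of all tested probe sets, in limma at an adjusted p under 0.05. At an unadjusted p under 0.05 limma found 5 members (8.77%, against 8.63% of all). These were mRpS24, which was higher, and mRpL20, mRpL49, mRpS26 and mRpS33, which were lower. The median of the tested members stayed between -0.09 and -0.05 under the 13 other settings tried, quantile normalization giving the smallest size. Genes of both other complexes examined were often lower in library 4 too. Of 33 tested cytosolic ribosomal protein genes 28 were lower (84.8%, median -0.07), and of 61 tested oxidative phosphorylation genes 54 were lower (88.5%, median -0.13). Library 4 had a hybridisation control ratio of 1.29 and a log2 3' to 5' ratio of 1.40, and all 7 ovary markers were lower in it as well (median -0.19). The part of these measures in the shift was not tested.

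**Figure D4:**
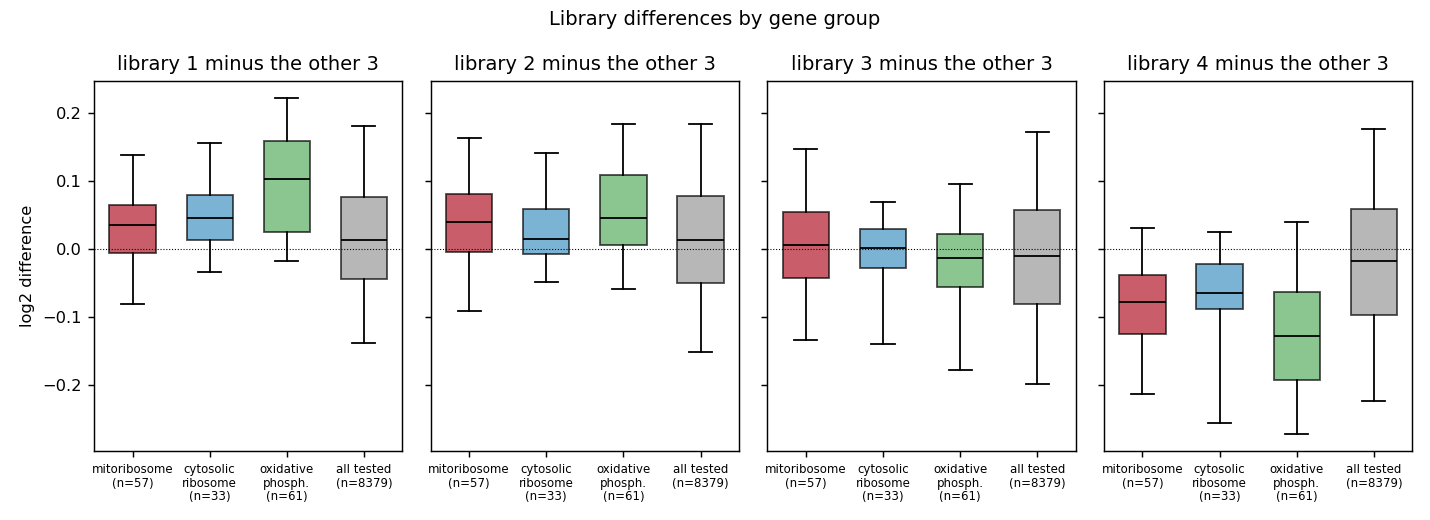
Log2 difference of each library from the mean of the other 3, for the 57 tested mitochondrial ribosomal protein genes, 33 cytosolic ribosomal protein genes, 61 oxidative phosphorylation genes and all 8379 tested probe sets. Lines are medians, boxes span the quartiles and whiskers the 5th to 95th percentiles. In library 4 the medians are -0.08, -0.07 and -0.13 for the 3 gene groups, against -0.02 for all tested probe sets.

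In libraries 1 and 2 more members were higher than lower. Members were higher than the mean of the other 3 in 40 of 57 cases in library 1 (70.2%, against 56.2% of all tested probe sets) and in 42 in library 2 (73.7%, against 55.8%). Library 2 was the highest library for 23 of them (40.4%, against 26.8% of all). Their median log2 difference was 0.04 in library 1 and 0.04 in library 2, against 0.01 over all tested probe sets in each, and 0.01 in library 3, against -0.01. Without library 4 the median was -0.01 in library 1, 0.01 in library 2 and -0.04 in library 3. No member was called in library 1, where 0% of all tested probe sets were, and limma found 2 members at an unadjusted p under 0.05 (3.51%, against 2.05% of all), mRpL11 and mRpS18C. None was called in library 2, against 0.107% of all tested probe sets, with 2 members at an unadjusted p under 0.05 in limma (3.51%, against 2.83%). These were mRpL33, with a log2 difference of 0.77 ± 0.22, and mRpS18A, with -0.32 ± 0.12. The adjusted p of both was 0.999 in limma.

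In library 3, where the male tract genes were high, 0 of 57 members were called, against 0.704% of all tested probe sets, and limma found 2 at an unadjusted p under 0.05 (3.51%, against 6.46% of all), mRpS18A and mRpL54. With subunits taken from the symbols, small subunit members were highest in library 1 in 10 of 20 cases, and large subunit members in library 2 in 18 of 37. mRpS18A and mRpS30, whose human relatives are found in the large subunit, are counted here with the small subunit. They were highest in libraries 3 and 2. Over all tested probe sets library 1 was highest for 25.4% and library 2 for 26.8%. Whether the subunits differ in this was not tested.

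The labelled order pairs libraries 3 and 4, as hours -2 and -1, against libraries 1 and 2, as hours -4 and -3, and control probe sets divide the same way. So do the ovary markers, all 7 of which were lower in libraries 3 and 4, with a median log2 difference of -0.24. The labels call all 4 samples baseline replicates and give the hours as an order, so the pairs are not read as a time course. The labelled order, the technical measures and the ovary markers cannot be told apart. Libraries 3 and 4 were both below libraries 1 and 2 for 26 tested members (45.6%), against 28.3% of all tested probe sets. They were both above for 2, mRpL2 and mRpS18A (3.51%), against 17.2%. The median log2 difference was -0.06, against -0.02 over all tested probe sets, with 49 members lower and 8 higher. Without library 4, library 3 against libraries 1 and 2 gave a median of -0.04, with 40 members lower and 17 higher. Among oxidative phosphorylation genes the median was -0.11, and among cytosolic ribosomal protein genes it was -0.04. Limma called 0 of 57 members, against 0.131% of all tested probe sets, and at an unadjusted p under 0.05 it found 5 (8.77%, against 12.3%).

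The members behind that count differed in direction. mRpL33 had 173 in library 3 and 145 in library 4, against 215 and 299 in libraries 1 and 2, a log2 difference of -0.68 ± 0.19 with an adjusted p of 0.309 in limma. mRpL39 had 111 in library 3 and 114 in library 4, against 123 and 132 in libraries 1 and 2, a log2 difference of -0.18 ± 0.07 with an adjusted p of 0.354 in limma. mRpS29 had 214 in each of libraries 3 and 4, against 247 and 233 in libraries 1 and 2, a log2 difference of -0.17 ± 0.06 with an adjusted p of 0.359 in limma. In these 3 genes libraries 3 and 4 were the lower pair. The difference of mRpL33 was -0.44 without library 2. mRpS18A had 482 in library 3 and 417 in library 4, against 406 and 348 in libraries 1 and 2, a log2 difference of 0.25 ± 0.10 with an adjusted p of 0.360 in limma. It was 0.14 without library 2 and 0.15 without library 3. The fifth of the count was mRpL2, given above. The pairs did not overlap for any of these genes, which largely follows from choosing them by p in the same comparison. None passed the threshold.

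Leaving out a library changed which members passed. With library 4 left out, library 3 against libraries 1 and 2 called mRpS18A, with a log2 difference of 0.36 ± 0.09 and an adjusted p of 0.0111 in limma, 1 of 57 tested members (1.75%) against 6.02% of all tested probe sets. With library 3 left out, library 4 against libraries 1 and 2 called mRpS24, with a log2 difference of 0.46 ± 0.09 and an adjusted p of 0.00193 in limma. It also called mRpL20, with -0.26 ± 0.08 and an adjusted p of 0.0384 in limma, so that 2 of 57 members (3.51%) passed against 6% of all tested probe sets. In these fits a gene's own spread comes from libraries 1 and 2 only. Limma moderates it towards the spread expected at that intensity over all tested probe sets. Library 3 or 4, being alone, is taken to vary in the same way.

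Mitochondrial ribosomal proteins with other gene names were read as well. tko, which encodes S12 of the decoding centre, had 188, 168, 188 and 188 in libraries 1 to 4. bonsai, which encodes S15, had 176, 169, 165 and 146. Library 2 was low for tko and library 4 for bonsai, and neither was called in any test. A probe set shared by mRpS10 and CG34316 had 278, 293, 272 and 272, and it cannot be assigned to either gene.

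The genes that work with the mitochondrial ribosome were tested in the same fits. Of 8 translation factors on the array 4 were tested, of 14 mitochondrial aminoacyl-tRNA synthetases 7, and of 11 genes for mitochondrial transcription, DNA maintenance and ribosome assembly 10. In limma 0 were called for variance, in a single library or between the pairs, where at most 0.704% of all tested probe sets were. At an unadjusted p under 0.05 there were 0 for variance and in libraries 1, 2 and 3, and 2 in library 4, CysRS-m as lower and PolG1 as higher. Between the pairs there were 4, with AspRS-m, mtSSB and mEFTu1 lower and SerRS-m higher in libraries 3 and 4. mEFTu1, the factor that delivers aminoacyl-tRNA, had 302, 324, 281 and 269 in libraries 1 to 4. TFAM, which packages mitochondrial DNA and starts its transcription, had 415, 401, 385 and 385. PolrMT, the mitochondrial RNA polymerase, had 318, 277, 311 and 299. The lowest library was 4 for mEFTu1, 3 for TFAM and 2 for PolrMT. In library 4 all 4 tested translation factors were lower than the mean of the other 3 libraries. So were 6 of 10 tested genes of the third list and 3 of 7 synthetases, against 56.2% of all tested probe sets.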

How the data were processed

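Whole-animal total RNA of 4 baseline samples was measured on one-colour Affymetrix arrays. The deposited intensities are linear, 1 per probe set and sample, and were normalized by the authors with dChip through an invariant set, per the labels. The sources used here do not name the dChip version, its background model, the arrays normalized together or detection calls. Array precision is limited by their number, 4.

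Without the 44 controls the arrays held 13966 probe sets, of which the platform annotation gave 12443 a single gene, 327 several and 1196 none. Symbols were updated through the RefSeq gene table (Release 6 plus ISO1 MT), which changed 0 member symbols. The probe set with the highest mean stood for a gene. Intensities were raised to the 20th percentile (57.1), log2 was taken, and the 8379 probe sets with a mean above the 40th percentile were tested with limma 3.58.1 (R 4.3.3, statmod 1.5.0). The variance test set each variance against the prior at that intensity (squeezeVar, robust, with trend, 7.26 prior degrees of freedom). Contrasts used lmFit and eBayes (robust, trend), two-sided. In a contrast of 1 library a gene's own spread comes from the other 3, and eBayes moderates it towards a prior at that intensity. Benjamini-Hochberg adjustment ran over all tested probe sets, at 0.05. The methods were tested on simulated data. The variance test recovered shifts of 1 library when large ones were present, but none in a table that held only smaller shifts. Even these smaller shifts exceeded the single-library log2 differences of every tested member except mRpL33. An absent call therefore does not show a level gene. The single-library test recovered shifts in both tables.

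The members, lists and tests were chosen with earlier results of these data known. Genes named are those past a threshold, the 5 with the smallest p for variance, 2 higher and 2 lower per contrast, the largest, median and smallest SD ratio per class, those with 2 probe sets, and a fixed list of well-studied members. Others appear as members of small counts or as neighbours in the gene table. The probe sets of like intensity, those within the members' interquartile range of mean log2 intensity, were chosen after seeing the data. Classes follow the symbols. Alternatives were other floors, filters, scalings and priors, and each library left out. Promoter and protein sequences are not analysed here, nor are 9 genes of the rule in the RefSeq table that have no probe set of their own.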

Additional observations from a re-analysis of the deposited data

Results flagged for a closer look

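Among 4 values, 1 can lie far from the rest, measured by its gap to the nearest value as a share of the range. Dixon's 95% critical value was the limit, which chance passes in about 1 of 20 groups. Here 7 of 64 members passed, of which 6 were among the 57 tested (10.5%), against 5.16% of all tested probe sets. In 6 of them library 4 was the low one. The gap was 0.8473 of the range for mRpL9 (122 in library 4, against 134 to 136 in the others) and 0.8332 for mRpL16. It was 0.877 for mRpL19, an untested dim member, and 0.8403 for mRpL38 (203, against 220 to 223). It was 0.8664 for mRpL55 (299, against 328 to 332) and 0.8884 for mRpS28 (251, against 276 to 280). The exception was mRpS30, where library 2 was high with a gap of 0.842 of the range. None of the 6 tested genes passed a limma test of its library.

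Signal also appeared in probe sets outside the comparisons. The set shared by mRpS10 and CG34316 had 271.8 in its lowest library, above the brightest negative control of 133. The second probe set of mRpL12 had 149 in its lowest library.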

How the results depend on the processing

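The variance call of mRpL33 was lost under most settings. The count of members called was 0 with a floor at the 5th percentile, quantile normalization, a filter at the 60th percentile, centring on medians, a prior that is not robust and a prior without trend. It was 1 with an offset. Over the settings the adjusted p of mRpL33 ran from 0.00320, without library 1, to 0.892, without a filter. With library 3 or 4 left out, the comparison of pairs is the same fit as the single-library comparison of the library that remains. Leaving out each library in turn gave 0 to 1 members for the variance. It gave 0 to 1 for library 3 against the others, 0 to 2 for library 4, and 0 to 2 for libraries 3 and 4 against 1 and 2. With no filter 2 members were called for the variance and 2 for library 1, mRpL52 and mRpS25 in both tests. Their other libraries lie at the floor, so that their spread there is 0 by construction, and these calls say nothing of the genes.

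Whole-table counts moved too: 23 variance calls became 0 to 666, 59 for library 3 became 24 to 504, 9 for library 2 became 5 to 30, 1 for library 4 became 0 to 503, 0 for library 1 became 0 to 52, and 11 for the pairs became 0 to 504. The highest counts came without a filter or with a library left out. For the pairs the highest count is that of library 3 without library 4, which is the same fit. The members' median ratio of SD to expected SD of 0.86 ran from 0.59, without library 4, to 1.03. Their median log2 difference ran from -0.09 to -0.05 in library 4, from -0.09 to -0.04 for the pairs and from 0.01 to 0.06 in library 2. In library 3 it was below 0 under median centring and without library 4. Apart from the construction named, the cause was not tested. No paired analysis was possible because there is a single group. Without replicate cultures in the labels and with 12 members below the brightest negative control in all libraries, small differences of dim members were not measurable.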
